A study of Homo sapiens with 16 samples.

Results

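The comparison described here set HMC3 cells given estradiol (E2) together with (2S,6S)-hydroxynorketamine, written (2S,6S)-HNK, against HMC3 cells given vehicle. It holds 4 of the 16 RNA-seq libraries of the series, chosen by their labels alone, with 2 libraries of E2+(2S,6S)-HNK and 2 of vehicle. The study describes HMC3 as a human microglial cell line, and the marker genes of these libraries are given below. The cells were exposed for 24 h to 0.1 nM E2 and 400 nM (2S,6S)-HNK, or to vehicle. All groups were treated in medium free of serum and phenol red, after a period in charcoal-stripped serum. The other groups used below were E2 alone at 0.1 nM, (2S,6S)-HNK alone at 400 nM, and E2 with (2R,6R)-HNK at the same doses, with 2 libraries each and the same exposure. Whether the libraries of a group came from separate cultures is not given in the sources used here, so p-values measure the spread between these libraries, which may be technical. The question put to these libraries was which genes a ketamine metabolite and E2 change in combination, and how the combination compares with either agent alone and with the mirror-image metabolite.

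Hydroxynorketamines are metabolites of ketamine, and (2S,6S)-HNK and (2R,6R)-HNK are stereoisomers that are mirror images of each other. E2 acts through the nuclear receptors ESR1 and ESR2 and the membrane receptor GPER1. The exporter SLC30A1 takes zinc out of the cell, importers such as SLC39A10 bring it in, and the metallothioneins are small proteins that bind zinc and copper. The transcription factor MTF1 senses zinc and raises SLC30A1 and metallothionein transcription through metal response elements in their promoters.

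The 16 libraries held 55300614 to 81646165 counts per library, with 61599174 and 60115434 in vehicle and 76709236 and 60036748 in E2+(2S,6S)-HNK. A count of 3, used as the floor, corresponded to 0.0350 to 0.0547 CPM over the 16 libraries, where CPM is the count scaled to a library of common size by edgeR (cpm). Libraries of a pair differed by more than sampling noise, with a chi-square per degree of freedom of 4.00 for E2+(2S,6S)-HNK and 3.08 for vehicle. The defining microglial genes were largely absent from all 4 libraries, since 11 of 15 markers had at most 10 counts in each of them. SPI1, the transcription factor of the macrophage lineage, had 0 or 1 count, PTPRC, the pan-leukocyte phosphatase, had 0 to 2, and the complement gene C1QA had none. CD68, a lysosomal glycoprotein, had 1063 to 1595 counts. The summed level of the microglial list was 106.9 and 110.2 CPM in vehicle and 113.2 and 114.7 CPM in E2+(2S,6S)-HNK. The mesenchymal list, which includes FN1, COL1A1 and VIM, summed to 21120 and 21690 CPM in vehicle and 23010 and 22680 CPM in the combination. Neuronal markers summed to 3.36 to 5.28 CPM and endothelial markers to 2.55 to 2.96 CPM across the 4 libraries. Astrocyte markers summed to 165.1 to 172.4 CPM and oligodendrocyte markers to 180.0 to 194.7 CPM. In each of these lists 2 of 6 markers had at most 10 counts in each of the 4 libraries, so a sum does not stand for every member. ESR1 was at 0 to 2 counts in every library of the series and was not tested.

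E2+(2S,6S)-HNK lowered the zinc exporter SLC30A1 and the metallothionein MT1E and raised the potassium channel subunit KCNAB2 and the matrix protein TNXB by amounts that were among the 3 largest in their direction for genes with a mean of at least 5 CPM over the vehicle and combination libraries. The same limit holds for the largest changes of each comparison, and members of gene lists are named from a mean of 1 CPM. Of 16004 genes tested against vehicle, 937 (5.85%) passed both an adjusted p under 0.05 and a limit of 1 on the size of the log2 fold change, 669 of them higher (4.18%) and 268 lower (1.67%) in the combination. The p-values came from the quasi-likelihood test of edgeR, adjusted by Benjamini-Hochberg over all genes tested. The median fold was 2.66 among the genes that were higher and 2.43 among those that were lower. At the adjusted p alone, 9551 genes passed (59.7%), with 3843 higher (24%) and 5708 lower (35.7%), and these shares are the background against which gene lists are read below. The CPM of the 2 groups did not overlap for 78% of all genes tested, with 33.2% higher and 44.8% lower in the combination. The median log2 change over all genes was -0.06 and was 0.04 with upper-quartile normalization, and the log2 values below are not centred on that shift. Shares over all genes are given for this fit and, against vehicle, for the GC content and length correction below. List counts under any other setting also carry a shift of all genes and have no such share beside them. The share of higher genes among those called was 71.4%, against 82.2% with upper-quartile normalization and 79.9% or 81.1% when edgeR or DESeq2 was fitted to the 4 libraries alone.

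**Figure D1:**
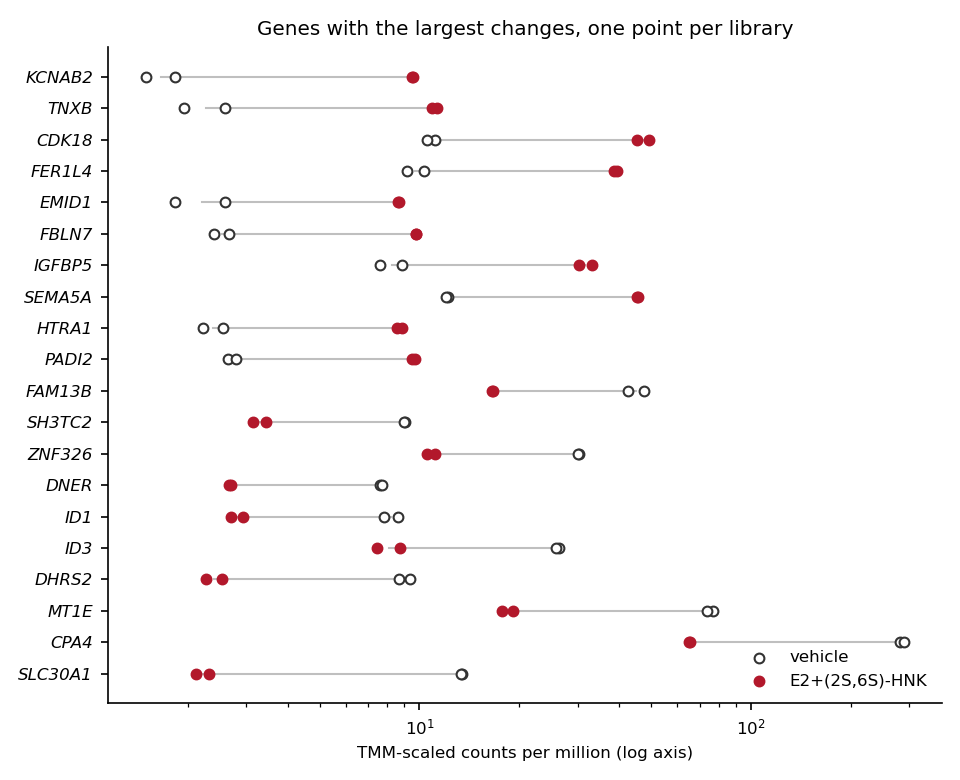
CPM (log axis) in each vehicle and each E2+(2S,6S)-HNK library for the 10 genes that rose most and the 10 that fell most, with 1 point per library and a grey line between the group means. That the groups do not overlap was a condition for choosing these 20 genes.

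The changes followed the GC content of the genes. Genes that were higher had a median GC content of 57.7% in their exons, those that were lower 44.8%, and all genes tested 48.7%. Across 15331 genes the rank correlation between GC content and log2 fold change was 0.444, a description in which genes are not independent replicates. Median log2 change ran from -0.36 among genes near 36.3% GC to 0.28 among genes near 65.8% GC. After a correction for GC content and exon length, 519 genes were higher and 219 lower, and 607 of these 738 were among the genes called without it. Under this correction 22.7% of genes were higher and 34.9% lower at the adjusted p alone, the background for list counts after it. Responses of the cells and biases of the libraries that follow GC content are both taken out by such a correction, and they cannot be told apart here.

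**Figure D2:**
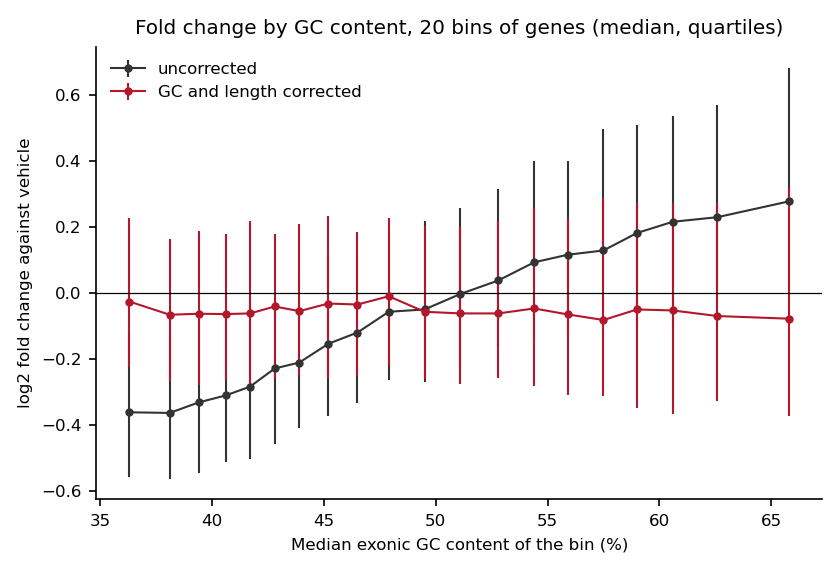
Median log2 fold change of E2+(2S,6S)-HNK against vehicle in bins of genes ordered by GC content (percent), before (grey) and after (red) the correction, with bars over the quartiles of each bin. The uncorrected medians rise from -0.36 to 0.28, while the corrected medians are -0.03 in the first bin and -0.08 in the last.

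KCNAB2, which encodes a beta subunit of voltage-gated potassium channels (GRCh37 chr1:6050987-6161253, + strand), had 1.49 and 1.83 CPM in vehicle and 9.57 and 9.48 CPM in the combination, a log2 fold change of 2.52 ± 0.14 (SE, n = 2 per group, edgeR adjusted p = 1.2e-21). TNXB, which encodes the matrix glycoprotein tenascin-X, went from 2.58 and 1.95 CPM to 10.9 and 11.3 CPM, a log2 fold change of 2.29 ± 0.12. CDK18, a cyclin-dependent kinase, went from 11.1 and 10.5 CPM to 49.3 and 45.4 CPM (log2 2.13 ± 0.07). Both combination libraries were above both vehicle libraries for these 3 genes, which was a condition for choosing the 10 largest rises. The other 7 of the 10 largest rises were FER1L4 (log2 2.01), a noncoding RNA, EMID1 (1.97), IGFBP5 (1.94), a secreted binding protein of insulin-like growth factors, FBLN7 (1.94), SEMA5A (1.91), an axon guidance protein, HTRA1 (1.87), a secreted serine protease, and PADI2 (1.81), which converts arginine in proteins to citrulline. IGFBP5 was at 8.87 and 7.6 CPM in vehicle and 33.1 and 30.2 CPM in the combination, and SEMA5A at 12.2 and 12 CPM against 45.6 and 45.3 CPM. Gene models of KCNAB2 and NPHP4 overlap by 212 bases and those of TNXB and CYP21A2 by 298 bases on opposite strands, and whether the counting used strand is not given in the sources used here.

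SLC30A1 fell most among genes above the limit of 5 CPM, by 2.58 on the log2 scale, and is described with the other zinc genes below. CPA4, a secreted carboxypeptidase, had 282 and 290 CPM in vehicle and 65.2 and 65.3 CPM in the combination (log2 -2.13 ± 0.03, edgeR adjusted p = 1.96e-44). ID3 and ID1, dimerization partners that block DNA binding of helix-loop-helix factors, went from 26.4 and 25.9 CPM to 8.71 and 7.45 CPM (log2 -1.69 ± 0.07) and from 7.81 and 8.59 CPM to 2.94 and 2.69 CPM (log2 -1.54 ± 0.12). Each of these 3 genes was lower in both combination libraries than in both vehicle libraries, which was again a condition of the choice. DHRS2, a short-chain dehydrogenase, fell by 1.90, the Notch ligand DNER by 1.52, the zinc-finger gene ZNF326 by 1.48, SH3TC2 by 1.45 and FAM13B by 1.44 on the log2 scale. FAM13B overlaps PKD2L2 on the opposite strand by 553 bases. The direction of all 20 genes was kept after the GC content and length correction, with log2 values of 2.30 for KCNAB2, 1.97 for TNXB, -2.16 for CPA4 and -1.13 for ZNF326.

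SLC30A1, which exports zinc across the plasma membrane (GRCh37 chr1:211744910-211752503, - strand), was at 13.4 and 13.3 CPM in vehicle and 2.32 and 2.11 CPM in the combination, a log2 fold change of -2.58 ± 0.11 (SE, n = 2 per group, edgeR adjusted p = 1.67e-25). MT1E (chr16:56659387-56661024, + strand) went from 77.0 and 73.6 CPM to 19.1 and 17.8 CPM (log2 -2.03 ± 0.05, adjusted p = 5.86e-37). MT2A (chr16:56642496-56643409, + strand), the most widely expressed metallothionein of human tissues, went from 307 and 293 CPM to 165 and 161 CPM (log2 -0.88 ± 0.03). In each of these genes both combination libraries lay below both vehicle libraries, as in 44.8% of all genes tested. For SLC30A1 and MT1E this was also a condition for their place among the largest falls. MT1X (chr16:56716382-56718108) had 7.18 and 7.08 CPM in vehicle and 3.29 and 3.31 CPM in the combination (log2 -1.11 ± 0.11). MT1F (chr16:56691643-56694610) had 4.89 and 4.98 CPM against 2.44 and 2.33 CPM (log2 -1.05 ± 0.13). Of the 7 metallothioneins tested, 5 fell and none rose (background 35.7% lower and 24% higher), with a median log2 change of -1.05. The fifth was MT1G, with 6 and 10 counts in vehicle and 0 and 2 in the combination, so that it lay near the floor. MT1A had 8 and 2 against 13 and 6 counts, and MT3 24 and 11 against 24 and 26 counts, and neither passed the test. The metallothioneins are close copies of each other, so the split of reads between them is uncertain. In bulk RNA, fewer cells with a transcript and less of it per cell cannot be told apart.

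Among 20 zinc transporters tested, 4 rose and 10 fell, with a median log2 change of -0.18. With upper-quartile normalization, or with edgeR or DESeq2 fitted to the 4 libraries alone, 5 rose and 6 fell. The importer SLC39A10 (chr2:196440701-196602426, + strand) rose from 34.6 and 37.3 CPM to 49.8 and 52.0 CPM (log2 0.50 ± 0.05, adjusted p = 5.32e-12). SLC30A9, a mitochondrial zinc transporter, fell from 35.1 and 34.0 CPM to 24.9 and 24.3 CPM (log2 -0.49), and SLC39A8, an importer of zinc and manganese, fell from 2.30 CPM in both vehicle libraries to 1.35 and 1.38 CPM (log2 -0.75). MTF1 itself was at 27.9 and 28.2 CPM in vehicle and 24.6 CPM in both combination libraries (log2 -0.19 ± 0.06, adjusted p = 0.00448). That small fall in MTF1 no longer passed the test after the GC content and length correction (log2 -0.11, adjusted p = 0.0864), with upper-quartile normalization or when edgeR or DESeq2 was fitted to the 4 libraries alone. The falls of SLC30A1, MT1E, MT1X, MT1F and MT2A and the rise of SLC39A10 kept their direction and passed the test in every alternative run.

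The promoters of these genes are shown because metal response elements are the sequence that MTF1 is known to bind. They are RefSeq windows of GRCh38.p14, from 250 bases before to 50 bases after the annotated start, written 5′ to 3′ on the strand of the gene. Capitals mark matches of TGCACNC or TGCGCNC on either strand. MT2A (chr16:56608334-56608633, + strand) had 8 matches, MT1X (chr16:56682220-56682519, + strand) had 4 and SLC30A1 (chr1:211579112-211579411, - strand) had 2.
MT2A: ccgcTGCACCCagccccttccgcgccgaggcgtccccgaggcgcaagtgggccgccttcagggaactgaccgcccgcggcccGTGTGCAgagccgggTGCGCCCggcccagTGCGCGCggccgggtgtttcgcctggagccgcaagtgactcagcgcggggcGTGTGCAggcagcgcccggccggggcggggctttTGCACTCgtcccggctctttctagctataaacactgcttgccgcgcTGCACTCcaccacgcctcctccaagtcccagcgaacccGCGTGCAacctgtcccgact
MT1X: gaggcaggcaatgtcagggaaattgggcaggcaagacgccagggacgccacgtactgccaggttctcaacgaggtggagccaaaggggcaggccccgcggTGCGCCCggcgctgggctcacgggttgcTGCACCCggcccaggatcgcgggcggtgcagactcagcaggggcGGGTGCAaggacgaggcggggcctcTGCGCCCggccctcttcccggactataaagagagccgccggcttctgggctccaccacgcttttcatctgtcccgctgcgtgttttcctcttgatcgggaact
SLC30A1: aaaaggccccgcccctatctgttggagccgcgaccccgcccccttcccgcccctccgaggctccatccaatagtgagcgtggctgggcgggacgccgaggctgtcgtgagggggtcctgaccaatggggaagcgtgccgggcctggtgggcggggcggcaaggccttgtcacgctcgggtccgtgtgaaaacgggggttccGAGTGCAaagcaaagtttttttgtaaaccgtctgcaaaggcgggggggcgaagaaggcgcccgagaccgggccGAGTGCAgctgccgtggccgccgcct
Of 35116 RefSeq promoter windows of the same length, 29.6% held at least 1 match. A match was found in both windows available for the metallothioneins tested, and in 13 of the 26 windows (50%) of 18 zinc transporters. A match describes the letters only and is not evidence of a bound site.

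Among the 5 groups compared here, SLC30A1, MT1E, MT1X, MT1F and MT2A were lowest in those given (2S,6S)-HNK, alone or with E2. The groups given ketamine, with or without E2, or (2R,6R)-HNK alone were not compared for these genes. SLC30A1 was at 9 and 7.44 CPM with E2 alone, 2.57 and 2.27 CPM with (2S,6S)-HNK alone, and 6.34 and 6.90 CPM with E2+(2R,6R)-HNK, against 2.32 and 2.11 CPM in the combination. MT1E was at 59.4 and 57.6 CPM with E2, 21.8 and 21.5 CPM with (2S,6S)-HNK, and 49.4 and 50.8 CPM with E2+(2R,6R)-HNK. For both genes the (2S,6S)-HNK group and the combination lay below all libraries of the other 3 groups. MT2A was at 296 and 310 CPM with E2, 199 and 202 CPM with (2S,6S)-HNK, and 344 and 353 CPM with E2+(2R,6R)-HNK, so that the 2 groups given (2S,6S)-HNK were again the lowest. SLC39A10 stood at 25.2 and 25.7 CPM with E2, 40.4 and 38.6 CPM with (2S,6S)-HNK, and 21.9 and 21.3 CPM with E2+(2R,6R)-HNK, and the combination was highest of the 5 groups. The tests of these differences are given with each comparison below.

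**Figure D3:**
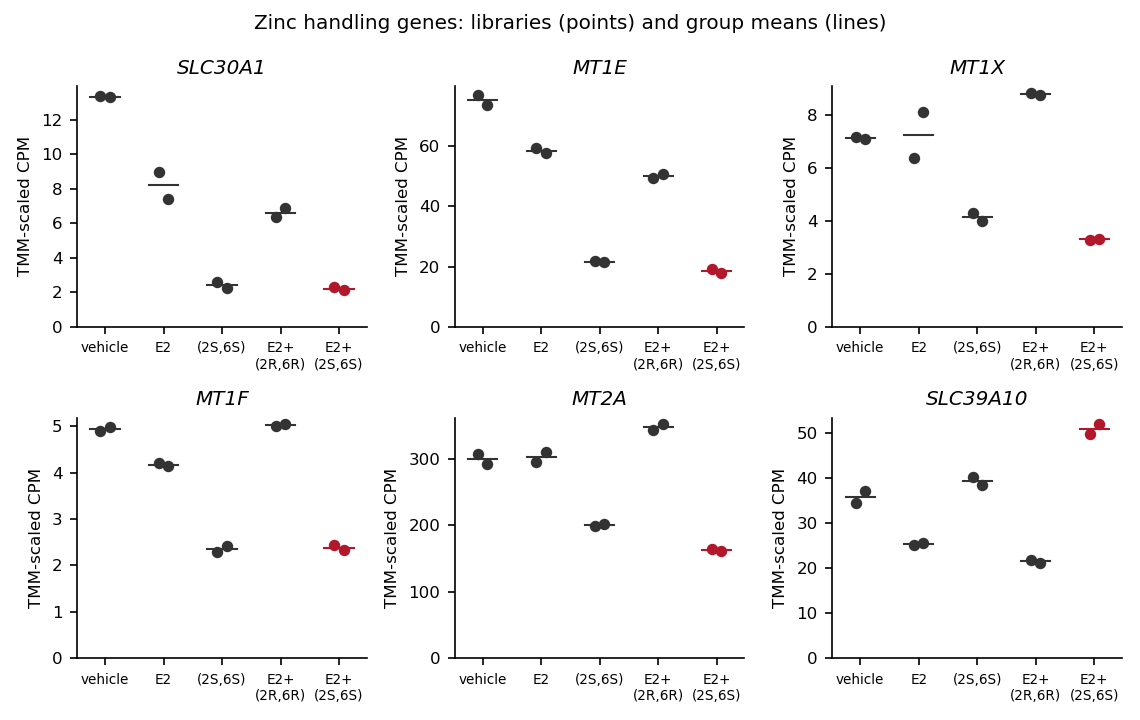
CPM (axes from 0) of 6 zinc genes in vehicle, E2, (2S,6S)-HNK, E2+(2R,6R)-HNK and, in red, the combination E2+(2S,6S)-HNK, with 1 point per library and a line at the mean of each group. SLC30A1 and the 4 metallothioneins are lowest in (2S,6S)-HNK and in the combination, and SLC39A10 is highest in E2+(2S,6S)-HNK.

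Chaperones fell as a group. Of 36 heat shock proteins and chaperones tested, 29 were lower and 3 higher (background 35.7% and 24%), with a median log2 change of -0.43, and the counts were 31 lower and 2 higher after the GC content and length correction. CHORDC1, a co-chaperone of HSP90, went from 60.2 and 60.7 CPM to 23.6 and 25.3 CPM (log2 -1.31 ± 0.05, edgeR adjusted p = 3.47e-26). HSPH1, a nucleotide exchange factor of HSP70, went from 88.0 and 89.1 CPM to 38.1 and 38.0 CPM (log2 -1.22). HSP90AA1, the stress-inducible HSP90, went from 1720 and 1730 CPM to 852 and 881 CPM (log2 -0.99 ± 0.02), and DNAJA1, a co-chaperone of HSP70, from 224 and 230 CPM to 114 and 115 CPM (log2 -0.99). All 4 were lower in both combination libraries than in both vehicle libraries, as were 44.8% of all genes tested. HSP90AA1 overlaps WDR20 on the opposite strand by 197 bases.

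The CHORDC1 promoter is shown because it holds a heat shock element, the sequence bound by the factors that activate chaperone genes. Its RefSeq window of GRCh38.p14 is chr11:90223000-90223299 on the - strand, and capitals mark 3 overlapping matches of GAANNTTCNNGAA or TTCNNGAANNTTC on either strand.
CHORDC1: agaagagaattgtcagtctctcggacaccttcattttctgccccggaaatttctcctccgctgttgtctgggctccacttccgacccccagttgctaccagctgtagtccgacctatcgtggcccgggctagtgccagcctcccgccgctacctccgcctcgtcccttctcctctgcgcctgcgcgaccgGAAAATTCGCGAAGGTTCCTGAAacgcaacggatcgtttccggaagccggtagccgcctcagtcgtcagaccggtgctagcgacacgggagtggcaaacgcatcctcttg
Matches were found in 9 of 48 windows (18.8%) of 32 chaperone genes and in 0.49% of all 35116 windows.

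Cell cycle genes were lower. Of 48 cell cycle and replication genes, 39 fell and 6 rose, with a median log2 change of -0.24, and 35 fell and 5 rose after the GC content and length correction. With upper-quartile normalization 29 fell and 9 rose. CENPF, a kinetochore protein, went from 164 and 175 CPM to 87.6 and 86.8 CPM (log2 -0.96 ± 0.04), and the mitotic kinesin KIF11 from 148 and 152 CPM to 86.2 and 86.9 CPM (log2 -0.79). MKI67, the proliferation marker Ki-67, went from 504 and 522 CPM to 309 and 312 CPM (log2 -0.73 ± 0.03), and RRM1, a subunit of ribonucleotide reductase, fell by 0.57. Both combination libraries were below both vehicle libraries in each, as in 44.8% of all genes tested. Replication-dependent histones are encoded in clusters, and 22 of 51 tested fell and 1 rose (median log2 -0.66). HIST1H1E, a linker histone, was at 4.27 and 3.84 CPM in vehicle and 1.94 and 2.35 CPM in the combination (log2 -0.93). Without replicate 1 of E2+(2S,6S)-HNK the histone count was 13 lower and 1 higher, and DESeq2 fitted to the 4 libraries gave 9 and 1. Histone genes are near copies of each other and most transcripts lack a poly(A) tail, so these counts are uncertain. Among 25 p53 targets, 8 rose and 6 fell, but 6 rose and 9 fell after the GC content and length correction. FDXR rose by 0.72 and the cell cycle inhibitor CDKN1A went from 116 and 115 CPM to 186 and 180 CPM (log2 0.66), while C12orf5 fell by 0.65 and the ribonucleotide reductase subunit RRM2B by 0.49.

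Antioxidant genes under NRF2 were also mostly lower, with 13 of 22 down and 1 up (median log2 -0.34), and 16 down and 0 up after the GC content and length correction (12 down and 5 up with upper-quartile normalization). GCLM and GCLC, the subunits of the enzyme that starts glutathione synthesis, fell by 0.89 and 0.62 on the log2 scale, GCLM from 16.2 and 19.2 CPM to 9.65 and 9.50 CPM. PRDX1, a peroxidase, went from 291 and 296 CPM to 196 CPM in both combination libraries, and TXN, thioredoxin, from 188 and 194 CPM to 129 and 126 CPM (log2 -0.58 each). Of 29 ATF4 targets and stress response genes, 14 rose and 11 fell. ASNS, asparagine synthetase, rose from 55.9 and 53.7 CPM to 126 and 130 CPM (log2 1.22 ± 0.04), and GDF15, a stress-induced cytokine, rose from 1.55 and 1.86 CPM to 5.21 and 5.13 CPM (log2 1.60 ± 0.14).

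Sterol and fatty acid synthesis genes rose in 21 of 35 cases and fell in 7, with a median log2 change of 0.13, and the split was 21 and 9 after the GC content and length correction and 26 and 2 with upper-quartile normalization. INSIG1, which retains the sterol sensor in the endoplasmic reticulum, rose from 257 CPM in both vehicle libraries to 543 and 555 CPM (log2 1.10 ± 0.02, edgeR adjusted p = 1.81e-37). ACSS2, an acetyl-CoA synthetase, rose from 63.4 and 66.7 CPM to 147 and 152 CPM (log2 1.20). ELOVL6, a fatty acid elongase, went the other way, from 7.03 and 7.72 CPM to 3.91 and 4.40 CPM (log2 -0.83). Of 30 glycolysis and hypoxia targets, 13 rose and 13 fell, against 15 and 8 with upper-quartile normalization and 11 and 14 after the GC content and length correction. LDHA, lactate dehydrogenase A, fell by 0.57, whereas ALDOC, an aldolase, rose by 0.93. Of 78 respiratory chain subunits, 15 rose and 40 fell, but with upper-quartile normalization 29 rose and 28 fell. Of 84 cytosolic ribosomal proteins, 44 rose and 27 fell, with a median log2 change of 0.06. With upper-quartile normalization 57 rose and 18 fell, and after the GC content and length correction 36 rose and 32 fell. EEF2, the elongation factor that moves the ribosome, was at 3680 and 3610 CPM in vehicle and 4400 and 4310 CPM in the combination (log2 0.25), and after the GC content and length correction its log2 change was -0.01 (adjusted p = 0.684).

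Matrix and contractile genes moved in both directions. Collagen genes rose in 17 of 31 cases and fell in 3 (median log2 0.35). The largest rises among members with a mean of at least 1 CPM were in COL8A2, from 10.4 and 11.5 CPM to 29.3 and 29.4 CPM (log2 1.42 ± 0.06), COL13A1 (log2 1.24), COL9A2 (1.14) and COL4A6 (1.01). Of 25 genes that respond to YAP or TGF-beta, 8 rose and 12 fell, and 12 rose and 11 fell with upper-quartile normalization. THBS1, the matrix protein thrombospondin-1, went from 1870 and 1910 CPM to 836 and 821 CPM (log2 -1.19 ± 0.02, edgeR adjusted p = 8.61e-43). ANKRD1 fell by 1.01 and TGFBI by 0.76. Among 22 matrix proteases and inhibitors, 6 rose and 9 fell, with MMP11 (log2 1.07) and the carboxypeptidase CPZ (1.07) up and the protease ADAMTS1 (-0.59) down with CPA4. Of 24 hyaluronan and prostanoid genes, 5 rose and 10 fell, with the hyaluronan receptor HMMR down from 49.2 and 50.9 CPM to 23.4 and 26.4 CPM (log2 -1.01) and the prostacyclin synthase PTGIS up from 3.74 CPM in both vehicle libraries to 8.87 and 8.24 CPM (log2 1.19). Annexins, which bind membrane phospholipids, split 3 up and 3 down of 11, against 6 and 3 with upper-quartile normalization and 1 and 3 without replicate 2 of E2+(2S,6S)-HNK. ANXA1 went from 160 and 162 CPM to 61.0 and 63.2 CPM (log2 -1.37 ± 0.04).

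Potassium channel genes rose more often than they fell. Of 56 tested, 24 rose and 5 fell, with a median log2 change of 0.34, and 18 rose and 5 fell after the GC content and length correction. With DESeq2, 21 rose and 3 fell on all 16 libraries, and 19 rose and 3 fell on the 4 libraries alone. The median was 0.31 to 0.45 when 1 library was left out. Beside KCNAB2, KCNAB3, another beta subunit, rose from 7.04 and 5.67 CPM to 13.1 and 12.6 CPM (log2 1.01), and KCNMB4, a subunit of calcium-activated channels, from 1.05 and 1.64 CPM to 3.31 and 2.94 CPM (log2 1.22). KCNIP4, a channel-interacting protein, fell from 1.60 and 1.88 CPM to 0.981 and 0.404 CPM (log2 -1.29), and the log2 change was -2.10 without replicate 1 of E2+(2S,6S)-HNK and -0.83 without replicate 2. Among 28 NMDA receptor, synaptic and neurotrophin genes, 12 rose and 6 fell, and 7 rose and 5 fell after the correction. DLG4, which encodes the postsynaptic scaffold PSD95, rose from 16.3 and 17.5 CPM to 29.7 and 30.9 CPM (log2 0.84), and GRIN3B, an NMDA receptor subunit, from 1.18 and 1.06 CPM to 2.48 and 2.86 CPM (log2 1.25). SYN1, synapsin I, was at 0.490 and 0.420 CPM in vehicle and 0.822 and 1.10 CPM in the combination (log2 1.07 ± 0.35, adjusted p = 0.00813), and this no longer passed the test when vehicle replicate 2 or E2+(2S,6S)-HNK replicate 2 was left out. For BDNF, a neurotrophin, vehicle was at 30.2 and 29.2 CPM and the combination at 29.9 and 27.9 CPM, with a log2 difference of -0.04 (95% interval -0.15 to 0.08, adjusted p = 0.589).

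Genes of antigen presentation and complement rose more often than they fell. Of 20 genes of MHC class I presentation, 13 rose and 3 fell, with a median log2 change of 0.35. HLA-B went from 104 and 103 CPM to 180 and 175 CPM (log2 0.78 ± 0.03, edgeR adjusted p = 6.11e-28), HLA-C from 51.2 and 53.2 CPM to 85.1 and 85.3 CPM (log2 0.71), and the chaperone TAPBPL from 0.703 and 0.386 CPM to 1.96 and 1.38 CPM (log2 1.62). HLA genes are near copies, and the counts kept only uniquely mapped reads. Of 15 complement genes, 7 rose and 2 fell. C1R, a protease of the first complement component, went from 3.86 and 3.99 CPM to 10.1 and 10.0 CPM (log2 1.36 ± 0.10), C2 rose by 1.29 and the inhibitor SERPING1 by 1.08. C1R and C1RL, which rose by 0.92, overlap by 672 bases on the same strand. Of 26 cytokine and chemokine genes, 5 rose and 7 fell, and 5 rose and 4 fell without replicate 2 of E2+(2S,6S)-HNK. IL11, a cytokine of the IL6 family, fell from 73.4 and 69.8 CPM to 44.1 and 43.4 CPM (log2 -0.71), and CCL26 from 1.70 and 2.18 CPM to 0.797 and 0.746 CPM (log2 -1.32).

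Interferon-stimulated genes rose in 22 of 50 cases and fell in 11, against a background of 24% higher and 35.7% lower, with a median log2 change of 0.21. After the GC content and length correction 23 rose and 6 fell. The rises were mostly small, and 1 gene passed the limit on the fold change. That gene was BST2, the antiviral protein tetherin, chosen here after its values were seen, with 6 and 10 counts in vehicle and 89 and 56 in the combination (log2 2.88 ± 0.46). IFI6 went from 12.3 and 11.9 CPM to 22.6 and 21.4 CPM (log2 0.86 ± 0.07), the immunoproteasome subunit PSMB9 rose by 0.76 and the restriction factor TRIM22 by 0.75. IRF9 and STAT2, partners in the factor that binds interferon-stimulated promoters, went from 17.1 and 15.4 CPM to 22.8 and 22.5 CPM (log2 0.48) and from 64.8 and 68.2 CPM to 108 and 103 CPM (log2 0.66). Both combination libraries were above both vehicle libraries for all of these, as for 33.2% of all genes tested. MX1, a dynamin-like antiviral GTPase, was at 1.41 and 1.85 CPM in vehicle and 2.02 and 2.15 CPM in the combination (log2 0.36, 95% interval -0.03 to 0.74, adjusted p = 0.103), and at log2 0.56 it passed without vehicle replicate 2 (0.0416) while it was at 0.17 without vehicle replicate 1 (0.551). IFITM1, which blocks viral entry, was at 1.37 and 1.06 CPM against 2.11 and 2.18 CPM (log2 0.81 ± 0.31, adjusted p = 0.0192), and it did not pass without vehicle replicate 2 (log2 0.64, adjusted p = 0.144), with DESeq2 on all libraries (0.147) or with the GC content and length correction and a replicate block (0.0508). OAS1, which makes the activator of RNase L, had 0.327 and 0.302 CPM against 0.687 and 0.513 CPM (log2 0.94, adjusted p = 0.0145), and did not pass without replicate 1 of E2+(2S,6S)-HNK (0.165), without vehicle replicate 2 (0.0744) or with DESeq2 on the 4 libraries alone (0.148). IRF7 rose from 30.2 and 30.0 CPM to 37.3 and 35.6 CPM (log2 0.28), but its log2 change was -0.08 after the GC content and length correction (adjusted p = 0.122).

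The JAK-STAT components that carry interferon and cytokine signals split 12 up and 11 down of 32. STAT3 went from 133 and 134 CPM to 162 and 161 CPM (log2 0.27 ± 0.03, edgeR adjusted p = 1.13e-11), JAK3 from 2.75 and 1.83 CPM to 5.74 and 5.77 CPM (log2 1.33) and STAT5A rose by 0.65. The kinase JAK1 fell by 0.44 and the inhibitor SOCS5 by 0.54, and SIN3A, a corepressor scaffold, went from 100 and 104 CPM to 83.8 and 82.6 CPM (log2 -0.30). The IFITM1 promoter is shown because IFITM1 had the largest fitted difference from (2S,6S)-HNK alone among the interferon-stimulated genes named here, a rank that rests on replicate 2 of (2S,6S)-HNK. Without that library the log2 difference was -0.89 for IFITM1 and -0.95 for MX1. Its RefSeq window of GRCh38.p14 is chr11:313790-314089 on the + strand, and capitals mark 2 matches of GAAANNGAAA, the core of the interferon-stimulated response element, searched on both strands.
IFITM1: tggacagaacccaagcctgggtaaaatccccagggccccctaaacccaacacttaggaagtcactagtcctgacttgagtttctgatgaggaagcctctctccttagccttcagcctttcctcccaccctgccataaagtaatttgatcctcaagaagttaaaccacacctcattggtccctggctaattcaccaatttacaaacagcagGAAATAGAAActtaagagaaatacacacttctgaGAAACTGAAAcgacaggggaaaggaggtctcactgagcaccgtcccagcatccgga
Such matches were found in 32 of 52 windows (61.5%) of 39 interferon-stimulated genes and in 3.57% of all 35116 windows. The STAT motif TTCNNNGAA was found in 16 of those 52 windows (30.8%), in 4 of 43 windows (9.3%) of 27 JAK-STAT genes, and in 7.66% of all windows.

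Estrogen-related and regulatory genes completed the comparison with vehicle. Of 21 estrogen receptor genes and classical targets tested, 4 rose and 12 fell, with a median log2 change of -0.17. With upper-quartile normalization 5 rose and 8 fell, and after the GC content and length correction 2 rose and 14 fell. Cyclin D1, encoded by CCND1, fell from 370 and 374 CPM to 202 and 194 CPM (log2 -0.91 ± 0.03, edgeR adjusted p = 2.95e-32), NCOA2 from 32.2 and 34.0 CPM to 22.4 and 21.9 CPM (log2 -0.58) and NRIP1 from 87.7 and 85.6 CPM to 56.8 and 60.0 CPM (log2 -0.57), the last 2 being cofactors of nuclear receptors. ESR2 was at 0.441 and 0.537 CPM against 0.564 and 0.295 CPM and did not pass the test. GPER1 was at 0.834 and 1.16 CPM against 0.699 and 0.560 CPM (log2 -0.65, adjusted p = 0.0402), a fall that did not pass with DESeq2 (adjusted p = 0.0832), with edgeR on the 4 libraries alone (0.102), with upper-quartile normalization (0.0885), with counts halved (0.0581), or without vehicle replicate 2 (0.357) or replicate 2 of E2+(2S,6S)-HNK (0.199). The letters GGTCANNNTGACC of the estrogen response element were in 0 of 30 windows of 16 of these genes and in 0.057% of all windows, which says only that these letters are not there. Of 28 immediate early genes, 10 rose and 10 fell, against 11 and 7 with upper-quartile normalization and 7 and 12 after the GC content and length correction. CEBPD went from 4.74 and 4.60 CPM to 13.3 and 13.1 CPM (log2 1.50), FOSB from 0.785 and 0.806 CPM to 2.23 and 2.27 CPM (log2 1.50) and FOS from 0.850 and 1.39 CPM to 2.82 and 2.80 CPM (log2 1.33), while KLF2 fell from 14.1 and 11.6 CPM to 7.52 and 6.06 CPM (log2 -0.91). Of 19 circadian clock genes, 10 rose and 6 fell, and 9 rose and 1 fell after the GC content and length correction and 10 and 3 with upper-quartile normalization. TEF, DBP and PER1, outputs or repressors of the clock, rose by 0.93, 0.92 and 0.87 and CLOCK fell by 0.62. Among 12 nuclear long noncoding RNAs, 2 rose and 4 fell, but 5 rose and 2 fell after the GC content and length correction, and 4 rose and 3 fell with upper-quartile normalization. MEG3 rose from 79.1 and 79.8 CPM to 146 and 149 CPM (log2 0.89), while SNHG1 fell by 0.54 and KCNQ1OT1 by 0.38.

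**Figure D4:**
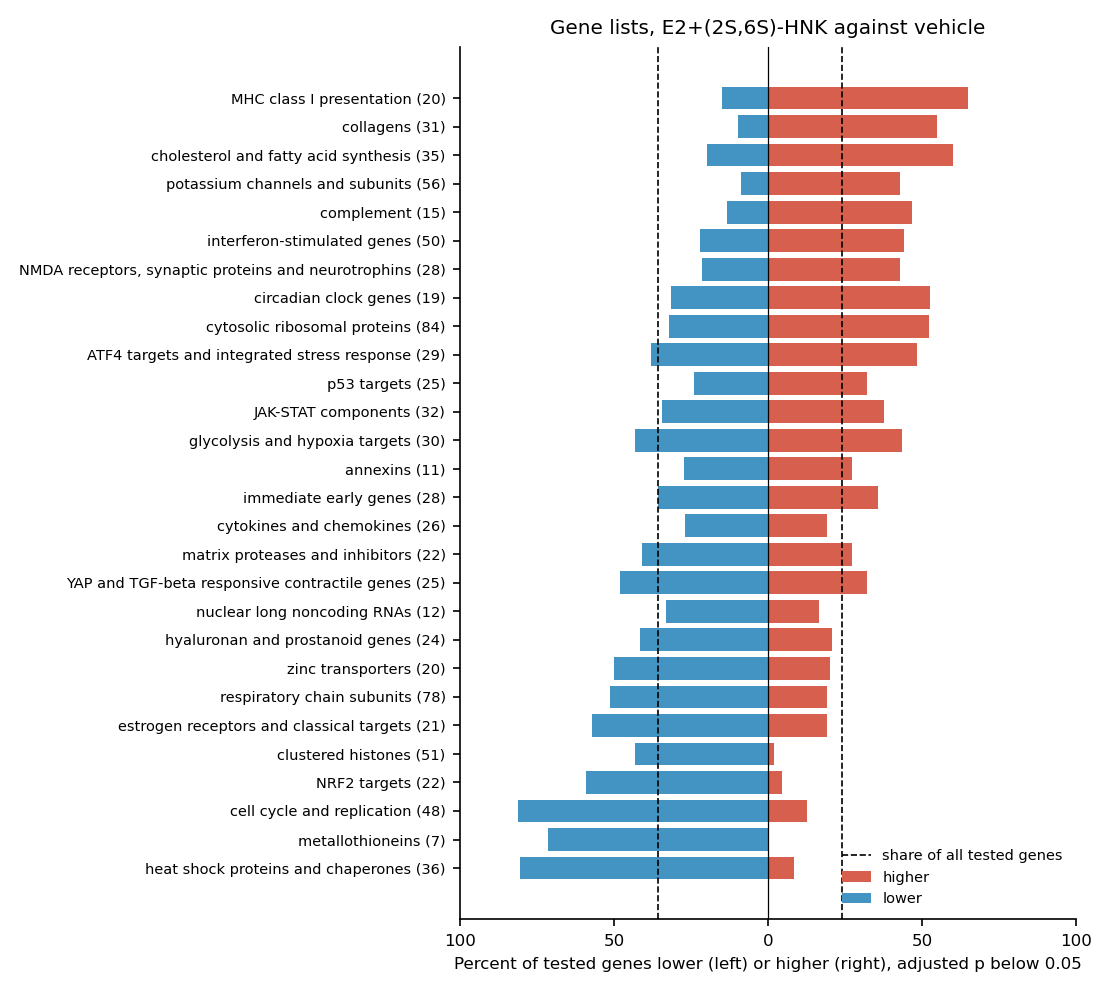
For each gene list, the share of tested members (percent) that were higher or lower in E2+(2S,6S)-HNK than in vehicle at an adjusted p under 0.05, with lines at the shares over all genes tested, 24% higher and 35.7% lower. Metallothioneins, chaperones and cell cycle genes lie furthest towards lower, and MHC class I presentation, cholesterol synthesis and collagen genes towards higher.

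The next comparison set the combination against (2S,6S)-HNK alone, so that the groups differed in E2. Against (2S,6S)-HNK alone, 112 genes (0.700%) differed at the fold limit, 67 higher (0.419%) and 45 lower (0.281%) in E2+(2S,6S)-HNK. DESeq2 called 40 on all 16 libraries and 5 on the groups compared, and a filter of at least 10 counts in every library left 31. At the adjusted p alone 8210 differed (51.3%), and 3853 were higher (24.1%) and 4357 lower (27.2%). The genes with the largest changes above the limit of 5 CPM over the vehicle and combination libraries moved by less than 1 on the log2 scale. GOLGA8A, a golgin family gene, was at 36.8 and 35.7 CPM with (2S,6S)-HNK and 57.6 and 58.7 CPM with the combination (log2 0.68 ± 0.05, edgeR adjusted p = 1.84e-17). AHSA2, a relative of an HSP90 activator, was at 10.4 and 10.6 CPM against 16.9 and 16.6 CPM (log2 0.68), and AP1AR and RNF146 were 0.68 and 0.67 higher. The combination libraries were above the (2S,6S)-HNK libraries in all 4. AHSA2 overlaps USP34 by 3263 bases on the opposite strand. MTRNR2L9 and MTRNR2L8, nuclear copies of a mitochondrial RNA sequence, were 0.80 and 0.64 lower, and VAMP5, a vesicle fusion protein, went from 19.2 and 18.6 CPM to 12.4 and 11.8 CPM (log2 -0.64 ± 0.07). FBXO6, a ubiquitin ligase subunit for glycoproteins, went from 7.19 and 7.34 CPM to 4.61 and 4.70 CPM (log2 -0.64). The rank correlation of these changes with GC content was -0.607 across genes, and after the GC content and length correction 34 genes were higher and 30 lower at the fold limit.

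Of 50 interferon-stimulated genes, 22 were lower and 5 higher in the combination than with (2S,6S)-HNK alone (background 27.2% and 24.1%), with a median log2 difference of -0.20, and 23 were lower and 2 higher after the GC content and length correction. MX1 was at 4.01 and 4.70 CPM with (2S,6S)-HNK and 2.02 and 2.15 CPM with the combination (log2 -1.07 ± 0.17, edgeR adjusted p = 4.3e-07), and leaving out any one library kept it between -1.17 and -0.95. IFI6 was at 28.8 and 27.3 CPM against 22.6 and 21.4 CPM (log2 -0.35), IRF9 at 30.3 and 30.1 CPM against 22.8 and 22.5 CPM (log2 -0.42), and STAT2 at 123 and 132 CPM against 108 and 103 CPM (log2 -0.27). For these 4 genes both libraries of the combination were below both of (2S,6S)-HNK. IFITM1 was at 3.96 and 13.1 CPM in the 2 libraries of (2S,6S)-HNK, which are far apart, and at 2.11 and 2.18 CPM in the combination. Its log2 difference was -2 (95% interval -2.49 to -1.51), and -0.89 without (2S,6S)-HNK replicate 2 (adjusted p = 0.00054). Without that library, 19 of the 50 genes were lower and 6 higher. Nuclear long noncoding RNAs went the other way, with 9 of 12 higher and none lower (7 higher and 1 lower after the correction), and MEG3 rose from 117 and 116 CPM to 146 and 149 CPM (log2 0.34).

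Several of the genes that changed most against vehicle did not differ detectably between the combination and (2S,6S)-HNK alone. The log2 difference was -0.12 for SLC30A1 (95% interval -0.40 to 0.16, and -0.33 after the GC content and length correction with adjusted p = 0.0645), -0.11 for TNXB (-0.30 to 0.09), -0.09 for IGFBP5 (-0.24 to 0.05) and 0.07 for SEMA5A (-0.04 to 0.17). Other genes with large changes against vehicle did differ before the correction, namely ID3 (-0.38), CDK18 (-0.29), FER1L4 (0.20) and CPA4 (-0.12). So did KCNAB2 (-0.26), EMID1 (-0.26) and DNER (-0.33). Small differences were detected for MT1E (-0.23), MT2A (-0.30), MT1X (-0.33) and SLC39A10 (0.36). After the GC content and length correction SLC39A10 differed by 0.13, and MT1E (-0.09, adjusted p = 0.214) and MT1X (-0.23, adjusted p = 0.163) no longer passed. MT1X also did not pass in 3 of 4 fits that left out 1 library (adjusted p up to 0.142). HSP90AA1 was at 708 and 688 CPM with (2S,6S)-HNK and 852 and 881 CPM with the combination (log2 0.31), so that it was less low with E2 added. DNAJA1 differed by 0.40 and CHORDC1 by 0.38 in the same direction, and CHORDC1 did not pass after the GC content and length correction (log2 0.10, adjusted p = 0.208).

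Against E2 alone, which shows what (2S,6S)-HNK changed when E2 was present, 587 genes (3.67%) differed at the fold limit, 326 higher (2.04%) and 261 lower (1.63%). DESeq2 on the groups compared called 381, and the filter of at least 10 counts in every library left 354. At the adjusted p alone 8811 differed (55.1%), and 4369 were higher (27.3%) and 4442 lower (27.8%). The largest rises were in IGFBP5, from 9.82 and 7.85 CPM with E2 to 33.1 and 30.2 CPM (log2 1.84 ± 0.08), TNXB (1.79), KCNAB2 (1.67) and SEMA5A (1.63). CRISPLD2, a secreted protein, went from 47.5 and 47.4 CPM to 12.3 and 11 CPM (log2 -2.02 ± 0.06, edgeR adjusted p = 6.08e-33), ID3 from 33.1 and 32.3 CPM to 8.71 and 7.45 CPM (log2 -2.01) and the keratin KRT7 from 605 and 607 CPM to 173 and 170 CPM (log2 -1.82). The libraries of the 2 groups were far apart in each of these genes. SLC30A1 was 1.89 lower, MT1E 1.66, MT1X 1.13 and MT2A 0.90 lower, whereas SLC39A10 was 1 higher. THBS1 was at 2210 and 2180 CPM with E2 and 836 and 821 CPM with the combination (log2 -1.41), and ASNS at 51.3 and 50.5 CPM against 126 and 130 CPM (log2 1.33).

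For other genes the combination was close to E2 alone. MKI67 was at 305 and 310 CPM with E2 and 309 and 312 CPM with the combination, a log2 difference of 0.015 (95% interval -0.035 to 0.065). CDKN1A differed by -0.01 (95% interval -0.07 to 0.05), and CHORDC1 by -0.07 (-0.19 to 0.04), although after the GC content and length correction CHORDC1 was 0.31 lower and CDKN1A 0.10 higher, and both passed the test. HSP90AA1 was at 829 and 811 CPM with E2, and thus low in both groups compared with vehicle.

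The stereoisomers were compared at matched doses and time in the presence of E2, which is 1 pair of groups. Against E2+(2R,6R)-HNK, 106 genes (0.662%) differed at the fold limit, 58 higher (0.362%) and 48 lower (0.300%) in E2+(2S,6S)-HNK. DESeq2 called 52 on all 16 libraries and 29 on the groups compared, and the filter of at least 10 counts in every library left 35. At the adjusted p alone 8647 differed (54%), with 3995 higher (25%) and 4652 lower (29.1%). Among genes with a mean of at least 5 CPM over the vehicle and combination libraries, the 4 largest falls and the largest rise were in zinc genes. SLC30A1 was 1.57 lower on the log2 scale with (2S,6S)-HNK (95% interval -1.81 to -1.34, edgeR adjusted p = 4.43e-16), MT1E 1.44 lower (-1.53 to -1.35), MT1X 1.41 lower (-1.63 to -1.19) and MT2A 1.10 lower (-1.16 to -1.04). MT1F was 1.07 lower (-1.33 to -0.82), and SLC39A10 was 1.23 higher (1.13 to 1.34). After the GC content and length correction the log2 differences were -1.80 for SLC30A1, -1.27 for MT1E, -1.29 for MT1X, -1 for MT2A, -0.89 for MT1F and 0.97 for SLC39A10. Of the 7 metallothioneins tested 5 were lower and none higher (4 and 0 after the correction). MT1X and MT2A had higher CPM in both E2+(2R,6R)-HNK libraries (8.81 and 8.73, 344 and 353) than in both vehicle libraries, and lower CPM in both E2+(2S,6S)-HNK libraries.

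**Figure D5:**
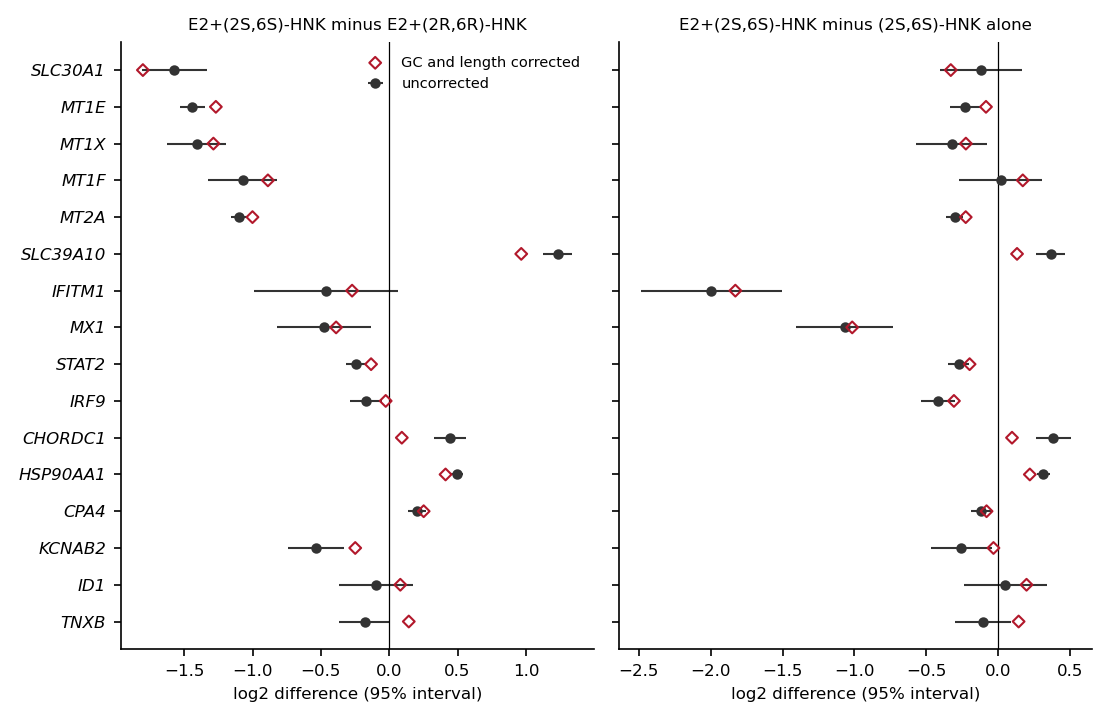
Log2 difference of E2+(2S,6S)-HNK from E2+(2R,6R)-HNK (left) and from (2S,6S)-HNK alone (right) for 16 named genes, with 95% intervals from the edgeR fit (circles) and the values after the GC content and length correction (diamonds). SLC30A1 and the metallothioneins lie between -1.57 and -1.07 on the left and between -0.33 and 0.02 on the right before the correction.

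Smaller differences between the stereoisomers were found elsewhere. ETNK1, an ethanolamine kinase, was at 11.6 and 13.0 CPM under E2+(2R,6R)-HNK, as against 21.4 and 23.4 CPM with E2+(2S,6S)-HNK (log2 0.86 ± 0.07), and 0.48 after the GC content and length correction. FSD1L and AK6 were 0.81 and 0.79 higher, and 0.43 and 0.51 after it. KLF2, a transcription factor of endothelium, was at 4.44 and 4.10 CPM against 7.52 and 6.06 CPM (log2 0.68 ± 0.11). HSP90AA1 was at 606 and 623 CPM against 852 and 881 CPM (log2 0.50), and ANXA1 at 41.6 and 41.1 CPM against 61.0 and 63.2 CPM (log2 0.59). The libraries given (2S,6S)-HNK were higher in all of these. CA9, a carbonic anhydrase, was at 7.26 and 8.17 CPM against 3.59 and 4.73 CPM (log2 -0.90), KCNAB2 0.54 lower, CDK18 0.41 lower, EEF2 0.40 lower and STAT3, at 198 and 192 CPM against 162 and 161 CPM, 0.28 lower. Noncoding RNAs of the nucleus were higher in 10 of 12 cases and lower in none (8 and 0 after the correction), and 16 of 50 interferon-stimulated genes were lower and 11 higher (12 and 5 after the correction), near the background of 29.1% and 25%.

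No difference between the stereoisomers was detected for several genes that both moved from vehicle. With E2+(2R,6R)-HNK, THBS1 was at 824 and 844 CPM, and the log2 difference was -0.01 (95% interval -0.05 to 0.03). SEMA5A was at 45.7 and 46.8 CPM (log2 difference -0.03, -0.13 to 0.08), IFI6 at 22.1 and 22.2 CPM (-0.01, -0.13 to 0.12) and ASNS at 121 and 126 CPM (0.05, -0.02 to 0.12). The intervals were wider for ID1 (-0.10, -0.37 to 0.18) and TNXB (-0.18, -0.37 to 0.01). After the GC content and length correction small differences were detected for THBS1 (-0.07) and ASNS (-0.12), and not for the other 4 genes. The rank correlation of the stereoisomer differences with GC content was -0.673 across genes, and after the GC content and length correction 25 genes were higher and 16 lower at the fold limit.

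The effect of the combination was also set against the sum of the effects of E2 alone and (2S,6S)-HNK alone on the log2 scale. This interaction passed the test in 10418 of 16004 genes (65.1%), 5259 above (32.9%) and 5159 below the sum (32.2%). With the limit of 1 on its size it passed in 1714 genes (10.7%), 1240 above (7.75%) and 474 below (2.96%). Group values are given here for 3 genes chosen for their large departures from the sum, so they do not show its form in all genes. The values of CLIC3 and GPRC5C, given further below, show another form. CHORDC1 was at 60.2 and 60.7 CPM in vehicle, 26.4 and 24.9 CPM with E2, 19.4 and 18.1 CPM with (2S,6S)-HNK and 23.6 and 25.3 CPM with both, so that the combination libraries overlapped those of E2 alone and lay above those of (2S,6S)-HNK alone (interaction 1.62 ± 0.08, edgeR adjusted p = 3.72e-23). PSMC6, a proteasome ATPase, was at 71.3 and 73.6, 35.5 and 35.8, 29.9 and 28.2, and 42.1 and 42.7 CPM in the same order (1.57). PDGFB, a platelet-derived growth factor chain, was at 6.62 and 5.72, 14 and 12.2, 15.9 and 16.6, and 11.2 and 13.5 CPM (-1.49 ± 0.12). In these 3 genes the combination was not further from vehicle than (2S,6S)-HNK alone. ASNS, with an interaction of 0.04 (adjusted p = 0.565), and IGFBP5, with -0.19 (adjusted p = 0.158), gave no detectable departure from the sum, though ASNS departed by -0.43 after the GC content and length correction. For SLC30A1 the interaction was 0.57 (adjusted p = 0.00273), and it was -0.05 (adjusted p = 0.84) after the GC content and length correction. For SLC39A10 it was 0.86 before and 0.16 (adjusted p = 0.0588) after the correction.

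The interaction followed GC content closely, with a rank correlation of -0.757 across genes. After the GC content and length correction it passed the test in 6426 genes, of which 4821 had also passed without it. The changes of E2 alone and of (2S,6S)-HNK alone against vehicle correlated with GC content at 0.755 and 0.651. All of these share libraries with each other, and the part of GC content in the interaction was not tested beyond this correction.

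Few genes passed in 1 direction against vehicle, against E2 and against (2S,6S)-HNK at once at the fold limit. There were 13, with 7 higher and 6 lower, and the 3 comparisons share the E2+(2S,6S)-HNK libraries. All were at low levels. The highest was LINC01355, a noncoding RNA, at 1.77 and 0.738 CPM in vehicle and 2.53 and 2.69 CPM in the combination, and the histone gene HIST1H2AI went from 1.03 and 0.873 CPM to 0.245 and 0.264 CPM. Both were chosen after their values were seen. The number of such genes was 29 without replicate 1 of E2+(2S,6S)-HNK, 8 without replicate 1 of (2S,6S)-HNK and 7 without replicate 2 of E2.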

How the data were processed

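Per the labels and the study's methods, cDNA was made with the NuGEN Ovation kit, sequenced as paired reads, aligned to hg19 with TopHat2 2.0.14 and Bowtie2 2.2.6, and counted per gene with featureCounts 1.4.6, keeping uniquely mapped pairs. These versions are from the submitters' processing notes, and the study's methods name other versions of the aligners. The counts deposited by the authors are raw, and the strand setting is not given in the sources used here.

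Group means of all 16 libraries were fitted with edgeR 4.0.16 (R 4.3.3; TMM, default filter, quasi-likelihood test, 8 residual degrees of freedom), and Benjamini-Hochberg adjustment covered all 16004 genes tested of 25370. CPM are TMM-scaled, and the SE is the log2 fold change divided by the square root of its F statistic. The common coefficient of variation was 2.81%. On simulated counts of 15725 genes, 98 genes were changed by 0.5 and 100 by 1.5 (log2) between these groups. Of these, edgeR recovered 73.5% and 90%, with 9 false calls. A share of changed genes as large as that called in these libraries was not tested. GC content and length were taken from GENCODE gene models for hg19 and corrected with a loess offset per library (span 0.5). Intervals and floors cover the spread between libraries and counting error only.

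The members and the 28 lists were chosen with earlier results of these data known. The text names the 10 largest rises and falls against vehicle (adjusted p under 0.05, mean of at least 5 CPM over the vehicle and combination libraries, groups not overlapping), up to 4 members per list with the largest change (mean of at least 1 CPM), the 4 largest per direction in the other comparisons (same limit of 5 CPM over the same libraries), and a set of genes tied to the study's questions. Alternatives were DESeq2 1.42.0, fits to the compared groups, other filters, upper-quartile normalization, a replicate block, the GC content and length correction, and leaving out each library. A few genes that the rule would name are not reported here.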

Additional observations from a re-analysis of the deposited data

Results flagged for a closer look

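The effect of E2+(2S,6S)-HNK differed from the sum of the effects of E2 and (2S,6S)-HNK in 10418 of 16004 genes by edgeR's interaction test. The 4 genes furthest above the sum at or above 5 CPM were LINC01111 (1.70 on the log2 scale), CHORDC1 (1.62), CCDC58 (1.59) and PSMC6 (1.57). LINC01111, a noncoding RNA, was at 17.7 and 19.0 CPM in vehicle, 7.59 and 8.70 CPM with E2, 9.07 and 8.50 CPM with (2S,6S)-HNK and 12.8 and 12.6 CPM with both. CCDC58 was at 17.0 and 16.1, 7.06 and 7.46, 7.35 and 6.99, and 8.80 and 10.1 CPM in the same order. The 4 genes furthest below were PDGFB (-1.49), CIB2 (-1.43), CLIC3 (-1.41) and GPRC5C (-1.39). CLIC3, a chloride channel family protein, was at 8.38 and 7.08 CPM in vehicle, 14.5 and 15.3 CPM with E2, 11.7 and 10.5 CPM with (2S,6S)-HNK and 7.74 and 8.37 CPM with both, and GPRC5C, an orphan receptor, was at 11.8 and 11.3, 20.8 and 21.9, 15.9 and 17.6, and 12 and 11.4 CPM. After the GC content and length correction the interactions of these 8 genes kept their direction and were smaller, with 0.69 for LINC01111, 0.74 for CHORDC1, 0.73 for CCDC58, 0.81 for PSMC6, -0.89 for PDGFB, -0.88 for CIB2, -0.73 for CLIC3 and -0.78 for GPRC5C.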

How the results depend on the processing

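Against (2S,6S)-HNK, where 112 genes were called, DESeq2 called 40 on all libraries and 5 on the groups compared, 31 were left with at least 10 counts in every library (which tests fewer genes), 64 with the GC content and length correction, with or without the replicate block, and 74 with all counts halved (chosen after seeing the data). Against E2, where 587 were called, DESeq2 on the groups compared gave 381 and the filter of 10 counts gave 354. Against E2+(2R,6R)-HNK, where 106 were called, these settings gave 52 and 29 with DESeq2, 35 with the filter, and 41 or, with the block, 42 with the correction. The interaction fell from 10418 to 6426 genes with the correction and to 6409 with the block as well. The 13 genes of 1 direction in 3 comparisons became 5 and 1 with DESeq2 and 6 with the filter. For these counts the cause was not tested unless fewer genes or libraries entered. Leaving out 1 library gave 837 to 924 genes against vehicle, 112 to 136, 529 to 557 and 94 to 135 in the next 3 comparisons, 9989 to 10225 interactions and 7 to 29 genes of 1 direction. With the correction, alone and with the block, 5 named genes changed sign against vehicle, to -0.324 for CLIC3, -0.006 for EEF2, 0.033 for FSD1L, -0.253 for GPRC5C and -0.082 for IRF7 on the log2 scale. Of 160 named genes, 157 kept direction and call with DESeq2 on all libraries and 151 with DESeq2 on the groups compared. In the number of genes changed, of the 28 lists the histones moved with DESeq2 on the groups compared (10 changed) and without replicate 1 of E2+(2S,6S)-HNK (14), and the clock genes with the correction (10). The direction with more genes turned in the p53 targets and nuclear long noncoding RNAs with the correction, and in others as given with each list. Replicate numbers did not pair the libraries, since deviations of same-numbered libraries correlated at -0.147 to 0.0874 over 10701 genes. A fit with the replicate block gave 940 genes against vehicle, 109, 584 and 101 in the next 3 comparisons, 10389 interactions and 13 genes of 1 direction. Counts from 1 to 9 were even in 65.8% of cases, against 49.9% at 500 or more, and the cause was not tested, so a low count or the floor of 3 may stand for fewer molecules than its value.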
